A study of Mus musculus with 18 samples.

Results

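The libraries described here ask what AOS at 10 mg/kg did to kidney messenger RNA in mice that were on a high fat diet. Of the 18 kidney libraries of the series, 6 belong to this comparison. They are 3 labelled as high fat diet with AOS at 10 mg/kg (HFD+AOS) and 3 labelled as high fat diet alone (HFD), chosen by their labels. All 6 are from whole kidney of 10 weeks old ICR mice, which are outbred. The other 12 libraries, in 4 groups of 3, are controls without treatment, mice with AOS at 10 mg/kg but no high fat diet (AOS), and mice on the diet that received a faecal microbiota transplant, either labelled AOS 10 mg/kg (HFD+AOS-FMT) or labelled control (HFD+control-FMT). They enter through the shared estimate of the spread and where named. AOS is written as the labels give it, and the sources used here do not give its route. Whether the 3 libraries of one group came from 3 animals is not stated, so p-values measure only how these samples spread, and that spread may be technical.

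The kidney filters blood in the glomerulus and recovers most of the filtrate along the proximal tubule, a segment packed with transporters, mitochondria, peroxisomes and lysosomes that runs on fatty acids. Many of its transporters and enzymes follow the hour of the day through the circadian clock, a loop in which the pair CLOCK and BMAL1 (the product of Arntl) switches on its own repressors. Diets rich in fat load this segment with lipid and are known to touch mitochondria, lysosomes, the endoplasmic reticulum (ER) and the handling of haem and iron.

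The values are normalized signals per gene as deposited, and differences between groups are given as log2(value + 1), a scale on which low genes appear to change less than they do. Depth is unknown, so values carry no counting interval. Values of 3 libraries are always listed for replicates 1, 2 and 3 in that order, and a gene passed where limma, fitted over 12031 genes in all 18 libraries, gave an adjusted p under 0.05. The 6 libraries correlated across genes at r = 0.988 to 0.992 within a group and 0.982 to 0.990 between the groups, and no pair of them was identical. Some transcripts of testis germ cells were listed in HFD replicates 1 and 2 but not in HFD replicate 3 (Prm1, a protamine of sperm, 8.08, 7.84 and 0 in HFD and 0 in all HFD+AOS libraries). Other germ cell markers, Smcp and Odf2 among them, were listed in all 6 libraries. Control replicate 3 stood apart from every other library: Kap, an androgen-driven transcript of the proximal tubule, took 2.48% of its summed values against 17.2% to 22.9% elsewhere. That library is in neither group of this comparison but widens the shared spread. In whole tissue, fewer cells of a type and less RNA per cell cannot be told apart.

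AOS on the high fat diet went with modest changes in a small number of genes. Of 12031 genes, 99 passed (0.823%). Of these, 56 were higher in HFD+AOS (0.465%), with a median log2 difference of 0.46, and 43 were lower (0.357%), with a median of -0.48. Only 2 of the higher and 3 of the lower genes moved by more than 1 on the log2 scale, while the median over all tested genes was 0.014. The 3 HFD+AOS values lay wholly outside the 3 HFD values for 3397 genes (28.2%), above them for 1953 (16.2%) and below them for 1444 (12%), so a gap between the groups in a gene that did not pass is common in these data. All 99 genes that passed have such a gap. At an unadjusted limma p under 0.05, 986 of the 12031 genes were higher and 825 lower. The counts of list members given below at that threshold read against these numbers. Genes on no list are grouped below by role after their values had been seen, and such groups have no test.

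The number of genes that passed depended on the libraries in the fit, while all 99 kept their direction in every fit that tested them. Without control replicate 3, 808 genes passed, 510 higher (4.24%) and 298 lower (2.48%), and these included all 99. With one library of the comparison left out, the count was 19 without HFD replicate 1, 24 without HFD replicate 2, 16 without HFD replicate 3, 10 without HFD+AOS replicate 1, 16 without HFD+AOS replicate 2 and 40 without HFD+AOS replicate 3. With the germ cell transcripts as a batch term, which leaves HFD replicate 3 as the only HFD library of its kind, 7 genes passed. After quantile normalization the split was 78 higher and 30 lower against 56 and 43. The genes Hmox1, Hlf, Upp2, Fmnl1, Tmem174, Ctbs and Cnot9 passed in all 6 of the fits that left out one library of the comparison, while 55 of the 99 passed in 0 of the 6, Arntl, Ftl1 and Slc9a3 among them.

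The circadian clock held the largest differences of the comparison. Arntl, which encodes the activator BMAL1 (chromosome 7, 113207465 to 113314126, plus strand), had the largest fall of all genes that passed, and Hlf, a clock output regulator (chromosome 11, 90336536 to 90390895, minus strand), rose. Hlf passed in all 6 fits with one library of the comparison left out and Arntl in 0 of 6, with limma adjusted p from 0.0869 to 0.133. Around them, the activator partner Npas2 stood lower, and the repressors Ciart and Per3 and the output regulators Dbp and Tef stood higher, each with a gap between the groups, but these did not pass in the fit of all 18 libraries. Stretches of promoter DNA that hold motifs known from this loop are shown first for 1 gene that fell, Arntl, and for 2 that stood higher with wide gaps, Ciart and Per3. They are from RefSeq, GRCm38.p6, on the strand of the gene, with the matched motif in capitals and positions counted from the RefSeq start of each window. That start lies 46 bases past the one given above for Arntl, whose window at the earlier start held no match, and 23 and 0 bases from the GENCODE start for Ciart and Per3.
Arntl, chr7:113207528-113207557, bases 18 to 47 after the start, with the capitals marking an element bound by ROR activators and REV-ERB repressors: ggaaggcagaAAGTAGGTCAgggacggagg
Ciart, chr3:95882259-95882358, bases -130 to -31, with the capitals marking E-boxes, the site of CLOCK and BMAL1: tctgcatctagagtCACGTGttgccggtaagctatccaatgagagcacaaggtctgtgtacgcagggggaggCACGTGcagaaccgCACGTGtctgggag
Per3, chr4:151044806-151044885, bases -220 to -141, with the capitals marking D-boxes, the site of DBP, TEF, HLF and NFIL3: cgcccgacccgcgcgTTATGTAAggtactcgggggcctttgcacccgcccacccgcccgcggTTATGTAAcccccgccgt

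The windows searched ran from 250 bases before to 50 bases after each start, on both strands, for the E-box CACGTG, the D-box as TTATGTAA or TTACGTAA, and the ROR element by its name. Of 32851 such windows in the table, 7.15% held the E-box, 0.938% the first and 0.119% the second form of the D-box, and 0.773% the ROR element. The Ciart stretch held 3 E-boxes and the Per3 stretch 2 D-boxes, and both stretches were picked after the values of the genes had been seen. An E-box also stood in windows of Cry1, which was lower, of Per1, which overlapped, and of Bhlhe41, Tef and Klf15. The windows of Clock, Npas2, Rora, Nr1d1, Nr1d2, Cry2, Hlf, Dbp and Nfil3 held none of these letters, so the matches did not sort the genes by direction. A match describes letters and is neither a bound site nor a cause.

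Among the activators and their regulators, Arntl stood at 2.41, 1.84 and 1.48 in HFD+AOS and at 10.9, 8.64 and 10.02 in HFD. Every HFD+AOS library was below 3 and every HFD library above 8 (log2 difference -1.91 ± 0.39 (SE, n = 3 in each group), limma adjusted p = 0.0399). Npas2, which can stand in for CLOCK as the partner of BMAL1, was at 1.90, 1.48 and 1.06 against 7.26, 5.89 and 6.96, the same separation with a log2 difference of -1.64, and did not pass (adjusted p = 0.0628). Clock itself was at 5.67, 5.46 and 5.07 against 7.48, 6.38 and 7.20, a far smaller gap (log2 difference -0.32).

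Nuclear receptors act on Arntl through its ROR element. Nr1d1 and Nr1d2, which encode the repressors REV-ERB alpha and beta, were at 35.7, 40.2 and 40.1 against 14.3, 20.2 and 11.1 and at 28.4, 24.8 and 28.8 against 10.5, 14.6 and 9.14. All HFD+AOS values were the higher ones, with log2 differences of 1.33 and 1.21, and neither gene passed. The activator Rora was at 7.25, 6.79 and 6.81 against 5.95, 5.97 and 5.11, also on the higher side. Of the 7 tested genes of this list 1 passed, lower, and the other 6 had gaps, 3 in each direction, while 28.2% of all genes had a gap.

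Of the 7 tested repressors, 0 passed by limma (3 higher and 1 lower at an unadjusted p under 0.05, as were 986 and 825 of all genes), and the list median was 0.61 against 0.014 over all genes. A gap on the higher side was found in 4 and on the lower side in Cry1, against 16.2% and 12% of all genes. Ciart, a repressor of the CLOCK and BMAL1 pair, was at 5.18, 7.76 and 8.72 against 0.590, 0.810 and 0.920. Its lowest HFD+AOS value was several times its highest HFD value (log2 difference 2.19, adjusted p = 0.151). Per3 was at 5.31, 5.18 and 6.15 against 1.36, 1.74 and 1.48 (log2 difference 1.37, adjusted p = 0.0952), and Per2 at 5.28, 4.75 and 6.43 against 3.38, 2.65 and 3.76 (log2 difference 0.61).

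The remaining repressors differed less or in the other direction. Cry2 was at 5.66, 5.14 and 5.24 against 2.50, 3.25 and 2.81, higher in every HFD+AOS library, whereas its paralog Cry1 was at 1.35, 0.730 and 1.05 against 2.43, 1.92 and 2.30, lower in every one. Per1, at 4.57, 3.17 and 5.17 against 2.71, 3.13 and 5.70, overlapped, as did Bhlhe40, at 36.9, 30.8 and 36.4 against 33.4, 22.7 and 34.6. The repressors therefore did not stand on one side as a group.

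The output regulators carry the clock to other genes through D-boxes. Hlf was at 34.4, 35.2 and 32.2 in HFD+AOS and 20.2, 23.7 and 21.8 in HFD, with tight groups that lay far apart (log2 difference 0.61 ± 0.074 (SE, n = 3 in each group), limma adjusted p = 0.00234). Dbp showed the widest log2 difference of all 12031 genes, at 69.7, 72.3 and 92.9 against 3.26, 10.2 and 3.36, and did not pass (log2 difference 3.73, adjusted p = 0.064). HFD replicate 2 was about 3 times the other HFD libraries and still far below every HFD+AOS library. Tef was at 94.4, 101 and 101 against 43.1, 57.2 and 43.8 (log2 difference 1.04, adjusted p = 0.0572). Nfil3, the repressor of the same D-boxes, went the other way, at 3.21, 0.940 and 2.59 against 9.32, 6.99 and 11.5 (log2 difference -1.71, adjusted p = 0.0714).

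Without control replicate 3 more of the clock passed. Of 7 activators and regulators, 2 were higher and 3 lower (Arntl, Npas2 and Clock lower, with adjusted p = 0.00174, 0.00131 and 0.0335, and Rora and Nr1d2 higher). Of the 7 repressors, Ciart, Per3 and Cry2 passed, all higher, with adjusted p = 0.000277, 0.00092 and 0.000694. Of 10 output regulators 5 were higher, among them Dbp, Tef and Hlf, and Nfil3 was lower. These counts read against 4.24% higher and 2.48% lower over all genes in that fit. The labels give no hour of collection, so a difference between treatments and a difference in the time of collection cannot be told apart for any of these genes.

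**Figure D1:**
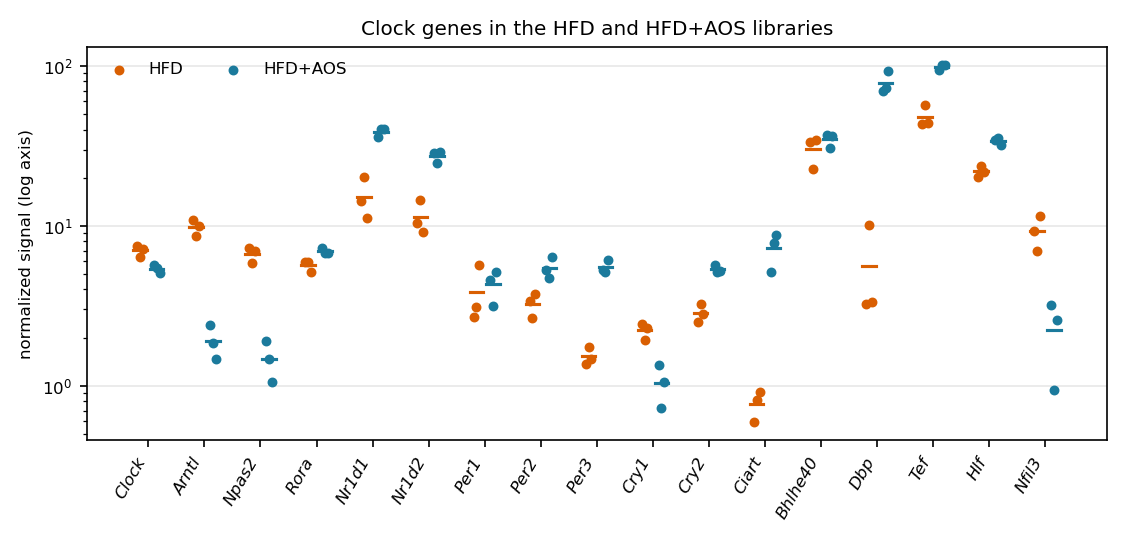
Normalized signal (log axis) of clock genes, in order of role, in the 3 HFD and the 3 HFD+AOS libraries. Points are libraries and bars are group means. Arntl, Npas2 and Nfil3 sit lower in HFD+AOS, and Ciart, Per3, Nr1d1, Nr1d2, Dbp and Tef sit higher, while Per1 and Bhlhe40 overlap.

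One gene each of haem breakdown and of iron storage fell with AOS. Hmox1, the haem oxygenase that opens haem into biliverdin, iron and carbon monoxide (chromosome 8, 75093621 to 75100589, plus strand), stood at 19.2, 21.1 and 20.7 in HFD+AOS and 53.5, 44.1 and 53.5 in HFD. The HFD+AOS values were at less than 50% of every HFD value, and no gene of the comparison had a smaller adjusted p (log2 difference -1.26 ± 0.13 (SE, n = 3 in each group), limma adjusted p = 0.000695). Ftl1, the light chain of the iron store ferritin, was at 3638, 3906 and 3356 against 5096, 5389.7 and 5837, and it passed with a smaller difference (log2 difference -0.58 ± 0.10 (SE, n = 3 in each group), limma adjusted p = 0.0225). Ferritin has near-identical copies in the genome, to which some of these reads may belong. Of the 14 tested genes of this list these were the 2 that passed, both lower, and the list median was -0.0613.

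Other steps of the same route did not pass. Fth1, the ferritin heavy chain, was at 4047, 4304 and 4039 against 4620.5, 4991 and 5125, lower in each HFD+AOS library (log2 difference -0.25, adjusted p = 0.144). Blvra, which turns biliverdin into bilirubin, lay on the other side, at 68.2, 65.9 and 62.4 against 53.9, 54.5 and 44.99 (log2 difference 0.35, adjusted p = 0.0834). Alas1, the first enzyme of haem synthesis, was at 46.5, 42.3 and 45.7 against 57.2, 52.9 and 63.9. The broader list of Nrf2 targets and antioxidant enzymes, a programme to which Hmox1 also belongs, had 0 of 18 genes pass by limma (1 higher and 2 lower at an unadjusted p under 0.05) and a median of -0.10. Nqo1, a defining target, was at 20.9, 23.04 and 22.2 against 19.9, 19.4 and 18.4.

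Transcripts of blood had a lower sum in the same libraries as Hmox1. The summed level of 5 haemoglobin and red cell genes was 1668 to 3384 in HFD+AOS and 4767 to 5338 in HFD, without overlap, and 0 of the 5 passed by limma (3 lower at an unadjusted p under 0.05). Hba-a1, whose reads cannot be assigned with certainty between near-identical copies, was at 2256, 2924 and 1376 against 3906, 4361 and 4683 and made up most of the sum. The beta chains overlapped: Hbb-bs was at 247, 404 and 254 against 791, 879 and 58.3 and Hbb-bt at 25.7, 45.2 and 32.7 against 91.7, 82.5 and 6.94, with HFD replicate 3 the lowest of all 6 libraries for both. The part of blood content in the Hmox1 and Ftl1 differences was not tested.

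Of 13 hypoxia-inducible genes, 1 passed. Ndrg1, a gene switched on by low oxygen and by differentiation (chromosome 15, 66929318 to 66969640, minus strand), was abundant in both groups, at 1207, 973 and 810.4 in HFD+AOS and 1787, 1624 and 1795 in HFD. The highest HFD+AOS library was well below the lowest HFD library (log2 difference -0.82 ± 0.16 (SE, n = 3 in each group), limma adjusted p = 0.0348). The rest of the list did not follow it: the median was 0.0115, P4ha1, a collagen prolyl hydroxylase, was lower (14.5, 13.8 and 14.7 against 21.4, 19.6 and 24.8), and Bnip3, a receptor for the removal of mitochondria, was higher (116, 114 and 122 against 97.5, 101 and 97.95), neither of them past the threshold.

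Most listed chaperones stood on the lower side, although none passed in the fit of all libraries. Of 18 genes of the ER chaperones and the unfolded protein response, 0 passed by limma (11 lower at an unadjusted p under 0.05), 12 had a gap on the lower side and 2 on the higher side, against 12% and 16.2% of all genes, and the list median was -0.36. Hspa5 (BiP), the main ER chaperone, was at 207, 178 and 189 against 279, 257 and 287 (log2 difference -0.52, adjusted p = 0.111). Sdf2l1, part of an ER chaperone complex, was at 5.43, 5.12 and 4.79 against 10.1, 8.78 and 9.07, and Manf, an ER stress-induced secreted protein, at 26.6, 24.9 and 24.9 against 40.98, 36.7 and 42.5. The transcription factor Atf4 was at 55, 55.3 and 67.6 against 95.4, 71.1 and 103, all without overlap.

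2 genes of the list lay on the higher side. Herpud1, which aids the removal of misfolded ER proteins, was at 172, 143 and 160.1 against 121, 110.5 and 125, and Dnajb9, an ER co-chaperone, at 46.9, 38.1 and 36.6 against 34.4, 31.9 and 35.4. Without control replicate 3, 7 of the 18 passed lower, among them Hspa5, Manf, Sdf2l1 and Calr (adjusted p = 0.0422, 0.0395, 0.041 and 0.00336 by limma), and 1, Herpud1, passed higher. Over all genes, 2.48% passed lower and 4.24% higher in that fit.

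Heat shock genes, a list of cytosolic chaperones that also holds the mitochondrial Hspe1, had the lower list median, -0.57 over 14 genes. Of the differences 13 of 14 were negative, with 6 gaps on the lower side. By limma 0 passed (6 lower at an unadjusted p under 0.05). Over all genes, 12% had a gap on the lower side. Hsp90aa1, the inducible HSP90, was at 164, 189.5 and 207 against 388, 320.1 and 364 (log2 difference -0.93, adjusted p = 0.109). Hspe1, the small partner of the mitochondrial chaperonin, was at 246, 269 and 274 against 343, 349 and 359.9. Ahsa1, which speeds up the ATPase of HSP90 and was not on the list, passed at 59.6, 58.3 and 59.6 against 97.4, 84.6 and 90.9, a set of nearly equal HFD+AOS values below every HFD value (log2 difference -0.61 ± 0.13 (SE, n = 3 in each group), limma adjusted p = 0.0418).

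The most inducible heat shock genes varied within the groups instead. Hspa1b, an HSP70, was at 5.32, 4.66 and 77.8 in HFD+AOS and 63.99, 13.8 and 89.3 in HFD, with HFD+AOS replicate 3 between HFD replicates 1 and 3. The fat cell gene Fabp4 was highest in the same 3 libraries, at 61.9, 80.4 and 234 and 287, 153 and 394, and so was the brown fat gene Ucp1, at 1.27, 2.00 and 73.6 and 42.9, 12.6 and 27.5. The part of fat tissue in the heat shock values was not tested. Without control replicate 3, 3 heat shock genes passed, all lower: Hsp90aa1, Hsp90ab1 and Hspe1 (adjusted p = 0.0058, 0.00921 and 0.0138 by limma). Over all genes, 2.48% passed lower in that fit.

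**Figure D2:**
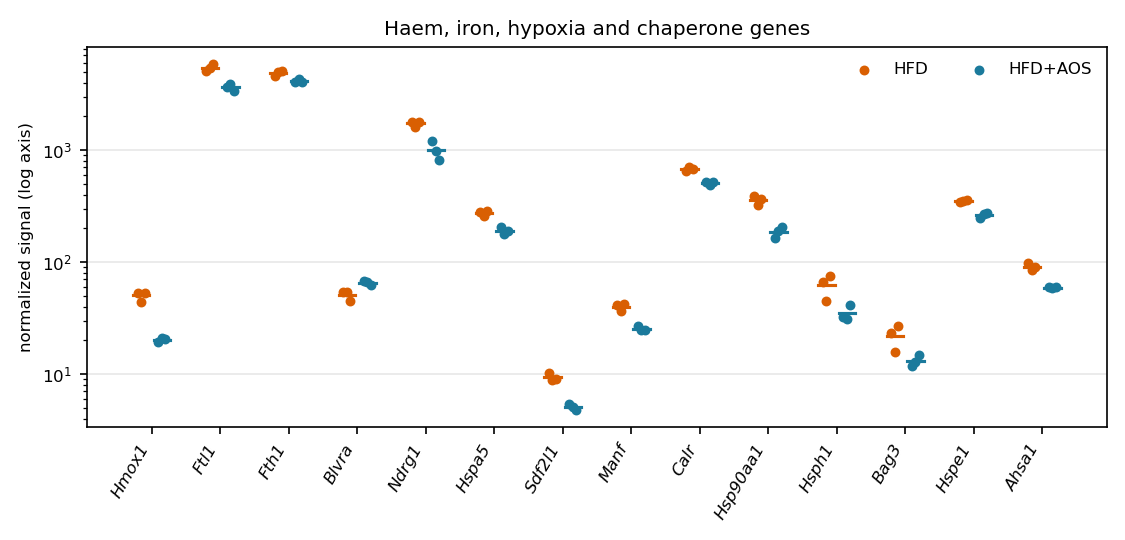
Normalized signal (log axis) of haem, iron, hypoxia and chaperone genes in the 3 HFD and the 3 HFD+AOS libraries. Points are libraries and bars are group means. All genes drawn except Blvra are lower in HFD+AOS without overlap, and Hmox1, Ftl1, Ndrg1 and Ahsa1 passed.

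A receptor of fat use rose, while the list around it did not. Ppara, the nuclear receptor that switches on fatty acid oxidation (chromosome 15, 85734983 to 85802819, plus strand), was at 20.8, 18.3 and 14.7 in HFD+AOS and 11.5, 10.2 and 11.2 in HFD. Its lowest HFD+AOS value was above its highest HFD value (log2 difference 0.65 ± 0.11 (SE, n = 3 in each group), limma adjusted p = 0.0225). Of the 21 tested genes of fatty acid oxidation and PPAR it was the 1 that passed, and the list median was -0.0386. Cpt1a, the gate for fatty acids into mitochondria and a known PPAR target, was at 135, 124 and 112 against 93.8, 98.1 and 82.7, higher without overlap (log2 difference 0.43, adjusted p = 0.0897), whereas the peroxisomal target Ehhadh was at 207, 204 and 208 against 226, 232 and 234, slightly lower without overlap.

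Outside the list, 2 further lipid genes passed as higher. Acox3, a peroxisomal oxidase of branched fatty acids, was at 106, 122 and 97.8 against 76.5, 83.5 and 75.04 (0.46 ± 0.10, adjusted p = 0.0492 by limma, log2 difference and SE). Vldlr, a receptor for triglyceride-rich lipoproteins, was at 16.1, 14.8 and 14.7 against 12.3, 11.5 and 12.6 (0.30 ± 0.06, adjusted p = 0.0348 by limma). Pgs1, which makes the precursor of the mitochondrial lipid cardiolipin, passed as lower, at 12.4, 12.1 and 11.9 against 15.7, 16.2 and 15.5 (-0.36 ± 0.067, adjusted p = 0.0268 by limma). All 3 showed small, even steps between the groups.

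One gene of cholesterol synthesis passed, and none of the genes listed for the pathway did. Msmo1, a sterol methyl oxidase of the late pathway that was on no list, passed at 17.2, 18.9 and 19.1 against 28.8, 29.01 and 32.3, with no overlap (log2 difference -0.68 ± 0.15 (SE, n = 3 in each group), limma adjusted p = 0.0467). Of the 19 listed genes 0 passed by limma (5 lower at an unadjusted p under 0.05), 14 differences were negative and 5 positive, and the median was -0.18. A gap on the lower side was found in 5 and on the higher side in 0, against 12% and 16.2% of all genes. Hmgcs1, an early enzyme of the pathway and the most abundant of the list, was at 202, 182 and 226 against 196, 191 and 151, with overlap (log2 difference 0.18). Fdps, which makes farnesyl diphosphate, was at 12, 14.3 and 14.9 against 21.9, 19.5 and 22.2, lower in each HFD+AOS library.

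Several transport genes of the tubule rose. Slc9a3, the sodium/proton exchanger through which this segment takes up most of its sodium bicarbonate (chromosome 13, 74121457 to 74169442, plus strand), was at 34.6, 40.4 and 34.2 in HFD+AOS and 24.5, 25.7 and 19.9 in HFD. The HFD+AOS values all lay above the HFD values (log2 difference 0.62 ± 0.13 (SE, n = 3 in each group), limma adjusted p = 0.0405). Slc22a4, a carrier of the antioxidant ergothioneine, was at 34.2, 45.2 and 29.99 against 23.8, 21.6 and 20.5 (log2 difference 0.69 ± 0.15 (SE, n = 3 in each group), limma adjusted p = 0.0496). Slc12a7, a potassium-chloride cotransporter, was at 46.2, 44.7 and 42.2 against 31.8, 35.3 and 30.97 (0.43 ± 0.071, adjusted p = 0.016 by limma).

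Other genes of the brush border and of membranes moved the same way. Myo7b, a motor of the brush border, was at 14.8, 13.3 and 13.04 against 11.1, 11.7 and 10.6, a small step (0.28 ± 0.061, adjusted p = 0.0493 by limma). The membrane protein Tmem174 rose from 211, 202 and 182 to 290.5, 301 and 267 and was among the 7 genes that passed with any one library left out (log2 difference 0.53 ± 0.071 (SE, n = 3 in each group), limma adjusted p = 0.00495). Slc35f3, a membrane protein of a nucleotide sugar transporter family, showed one of the 2 rises above 1, at 11.97, 12.4 and 9.07 against 4.19, 6.35 and 4.54 (log2 difference 1.02 ± 0.18 (SE, n = 3 in each group), limma adjusted p = 0.0225).

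As a list, proximal tubule markers were slightly higher. Of 20, Slc9a3 was the 1 that passed, and the median was 0.19. A gap on the higher side was found in 8 and on the lower side in 0, against 16.2% and 12% of all genes. Slc6a19, the main carrier of neutral amino acids, showed the widest gap, at 152, 120.3 and 113 against 63.9, 64.3 and 55.9 (log2 difference 1.04, adjusted p = 0.0921). The sodium-phosphate cotransporter Slc34a1, the marker with the highest level, was at 3261, 2935 and 2997 against 2669, 2919 and 2668. The summed level of the 20 markers was 11264 to 11941 in HFD+AOS and 10273 to 11032 in HFD, and the part of a larger share of this segment in the transporter differences was not tested. Without control replicate 3, 5 of 20 passed, all higher, against 4.24% of all genes in that fit.

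Sugar handling by the same segment showed gaps without calls. Slc2a2 and Slc2a5, carriers of glucose and of fructose, were at 65.9, 51.6 and 46.7 against 36.1, 39.5 and 35.7 and at 73.3, 69.7 and 56.5 against 30.7, 48.05 and 39.9, with HFD+AOS higher in both. Of the 9 genes of gluconeogenesis and fructose use, 0 passed by limma (3 higher at an unadjusted p under 0.05), 4 had a gap on the higher side and none on the lower, and the median was 0.20. Glycolysis lay on the other side, with 0 of 14 passing by limma (3 lower at an unadjusted p under 0.05), 5 gaps on the lower side and a median of -0.14. Over all genes, 16.2% had a gap on the higher side and 12% on the lower. Pfkp, the platelet form of phosphofructokinase, was at 14.3, 11.6 and 11.2 against 16.9, 26.5 and 31.1 (log2 difference -0.92, adjusted p = 0.0628).

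Enzymes of nucleotides, one-carbon units and amino acids made up a further part of the calls. Upp2, a uridine phosphorylase that frees uracil from uridine (chromosome 2, 58567298 to 58792971, plus strand), had the largest rise of all genes that passed, at 10.4, 10.7 and 15.5 in HFD+AOS and 4.76, 4.97 and 6.68 in HFD. HFD+AOS replicate 3 was the highest library, and the other HFD+AOS libraries were still above all HFD libraries (log2 difference 1.02 ± 0.15 (SE, n = 3 in each group), limma adjusted p = 0.00942). Adk, which phosphorylates adenosine, was at 113, 113 and 115 against 96.3, 89.5 and 88.3 (0.31 ± 0.063, adjusted p = 0.0348 by limma). In the other direction, Nt5dc2, of the family of nucleotidases, was at 14.5, 13.4 and 11.6 against 27.7, 28.9 and 21.7 (log2 difference -0.93 ± 0.17 (SE, n = 3 in each group), limma adjusted p = 0.0225), and the mitochondrial nucleotidase Nt5m at 9.45, 8.98 and 10.1 against 13.03, 13.3 and 12.3 (-0.40 ± 0.078, adjusted p = 0.0331 by limma).

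Enzymes of one-carbon units rose in small steps. Mthfd1, which interconverts the forms of folate that carry one-carbon units, rose from 61.8, 62.5 and 59.9 to 77.7, 73 and 77.6 (0.31 ± 0.062, adjusted p = 0.0362 by limma), and Chdh, the first enzyme from choline to betaine, from 58.5, 58.5 and 55.1 to 74.5, 72.9 and 64.6 (0.29 ± 0.063, adjusted p = 0.0467 by limma). In both genes the groups stood apart without overlap.

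Breakdown of amino acids was touched at single steps. Dhtkd1, of the mitochondrial 2-oxoadipate dehydrogenase that breaks down lysine and tryptophan, was at 18.6, 19.7 and 24.02 against 13.1, 12.8 and 9.56 (log2 difference 0.77 ± 0.16 (SE, n = 3 in each group), limma adjusted p = 0.0467). Hoga1, an aldolase of hydroxyproline breakdown, was at 108, 114 and 99.8 against 83.6, 90.5 and 84.6 (0.31 ± 0.062, adjusted p = 0.0348 by limma). Dnajc12, a co-chaperone with a J domain, was at 185, 174 and 195 against 124, 122 and 112, with a wide gap (log2 difference 0.63 ± 0.12 (SE, n = 3 in each group), limma adjusted p = 0.0256). The fixed list of amino acid and one-carbon breakdown, which holds none of the enzymes that passed, had 0 of 22 genes pass by limma (7 higher and 1 lower at an unadjusted p under 0.05) and a median of 0.15. Of all 12031 genes, 986 were higher and 825 lower at that unadjusted threshold.

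Sephs2, which makes the selenium donor for selenoproteins, was at 214, 237 and 228 against 173, 169.9 and 159 (0.43 ± 0.092, adjusted p = 0.0448 by limma). Every HFD+AOS library was above every HFD library for this gene, while Gpx3, a selenoprotein that the proximal tubule secretes in large amounts, was at 31904, 26512 and 29013 against 26296, 26964 and 31725, with overlapping groups.

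Among the genes that fell in small steps were 3 subunits of the proton pump and 3 other genes of lysosomes and endosomes. The subunits Atp6v0b, Atp6v0e and Atp6v0d1 belong to the membrane sector of the V-type ATPase, which acidifies lysosomes and endosomes. Atp6v0b was at 165, 169 and 171 against 215, 221 and 215 (-0.36 ± 0.072, adjusted p = 0.0348 by limma), Atp6v0e at 195, 196 and 181 against 245, 253 and 248 (-0.38 ± 0.06, adjusted p = 0.0127 by limma), and Atp6v0d1 at 80.6, 84.2 and 74.95 against 96, 95.1 and 97.9 (-0.27 ± 0.059, adjusted p = 0.0492 by limma). All 3 were lower in each HFD+AOS library than in any HFD library, by log2 differences of -0.38 to -0.27. Lamtor1, which anchors nutrient sensing to the lysosome, Tmem192, a protein of the lysosomal membrane, and Chmp2b, of the machinery that buds vesicles into endosomes, also passed as lower, by -0.31 to -0.28. These 6 genes were grouped after their values had been seen, so the group has no test.

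The intercalated cell uses other pump subunits to secrete acid. Atp6v1b1, a subunit of these cells, was at 36.1, 29.04 and 32.02 against 24.3, 24.03 and 24.6, higher without overlap and not past the threshold (adjusted p = 0.2), whereas Atp6v1g3, at 12.9, 11.8 and 14.2 against 10.5, 12.6 and 15.6, and Atp6v0d2, at 13.03, 10.8 and 11.8 against 9.68, 11.8 and 12.5, overlapped. One lysosomal enzyme rose: Ctbs, which trims the last sugars from degraded glycoproteins, was at 33.9, 29.3 and 30.8 against 21.9, 22.98 and 21.8 and passed with any one library left out (log2 difference 0.48 ± 0.058 (SE, n = 3 in each group), limma adjusted p = 0.00234).

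**Figure D3:**
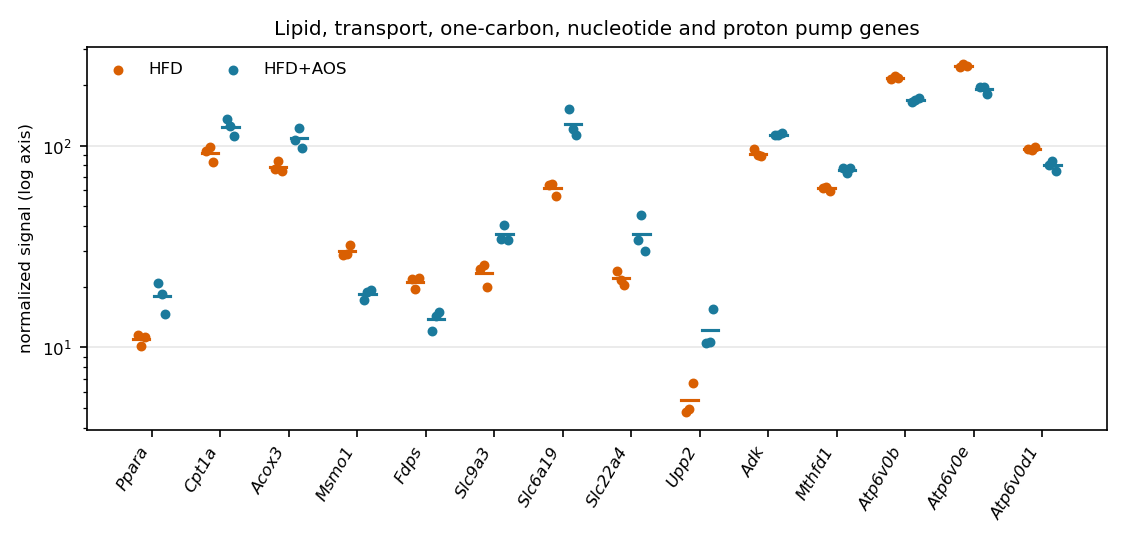
Normalized signal (log axis) of genes of lipid use, transport, nucleotides and folate, and the proton pump in the 3 HFD and the 3 HFD+AOS libraries. Points are libraries and bars are group means. Ppara, Slc9a3, Slc22a4, Upp2, Adk and Mthfd1 are higher in HFD+AOS, and Msmo1 and the 3 Atp6v0 subunits are lower, each without overlap.

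Single enzymes that attach sugars rose. B3galnt1, which makes the glycolipid globoside, was at 15.99, 10.7 and 13.01 against 5.52, 7.83 and 7.15 (log2 difference 0.85 ± 0.17 (SE, n = 3 in each group), limma adjusted p = 0.0348). The smaller rises of B4galnt3 and B4gat1, which extend sugar chains on proteins, were 0.31 and 0.33 on the log2 scale, both past the threshold. Ugt1a7c, a glucuronosyltransferase that tags drugs and other compounds for excretion, was at 160.1, 165 and 159.8 against 116, 96.2 and 78.5, with a gap of more than 40 between the groups (log2 difference 0.75 ± 0.13 (SE, n = 3 in each group), limma adjusted p = 0.0225). Its family shares exons, so reads may be split between members.

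Drug and steroid enzymes varied more within groups. Srd5a1, a steroid reductase that makes dihydrotestosterone, rose from 7.92, 7.14 and 7.65 to 12.5, 10.2 and 13.03 (log2 difference 0.58 ± 0.11 (SE, n = 3 in each group), limma adjusted p = 0.0319). Of the 15 tested genes of drug metabolism 0 passed by limma (2 higher at an unadjusted p under 0.05), and Cyp24a1, which breaks down active vitamin D, was at 70.2, 31.96 and 14.5 against 8.73, 11.2 and 5.37. All of its HFD+AOS values were higher, but they also differed widely among themselves (log2 difference 1.86, adjusted p = 0.171).

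Genes of the cytoskeleton and of the basement membrane changed in both directions. Fmnl1, a formin that extends actin filaments (chromosome 11, 103171107 to 103198901, plus strand), was at 35.6, 35.03 and 40.5 in HFD+AOS and 21.5, 22.8 and 19.5 in HFD, a clear separation that held with any one library left out (log2 difference 0.78 ± 0.10 (SE, n = 3 in each group), limma adjusted p = 0.00495). Cit, the citron kinase of cell division, was low in both groups, at 1.67, 1.93 and 1.59 against 0.770, 0.920 and 0.630 (log2 difference 0.62 ± 0.11 (SE, n = 3 in each group), limma adjusted p = 0.0189). Actb, cytoplasmic actin and a common reference gene, fell from 342, 383 and 409.9 to 233, 275 and 292 (log2 difference -0.50 ± 0.10 (SE, n = 3 in each group), limma adjusted p = 0.0348). Dynll1, a light chain of dynein, fell from 80.6, 64.99 and 75.98 to 40.6, 45.1 and 47.6 (log2 difference -0.72 ± 0.11 (SE, n = 3 in each group), limma adjusted p = 0.0127).

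Npnt, nephronectin, a basement membrane ligand of integrins (chromosome 3, 132881745 to 132950291, minus strand), was at 23.7, 24.03 and 24.2 against 37.6, 39.05 and 40.7. Its HFD+AOS libraries agreed within 1 unit, and the lowest HFD library was more than 10 units above them (log2 difference -0.68 ± 0.10 (SE, n = 3 in each group), limma adjusted p = 0.0127). The basement membrane collagens Col4a1 and Col4a2 were at 36.3, 33.01 and 29.3 against 42.2, 38.5 and 41.4 and at 25.1, 24.6 and 20.2 against 28.6, 26.04 and 29.7, lower without overlap, and the laminin Lama5 at 7.68, 7.83 and 7.56 against 4.63, 6.53 and 5.45, higher without overlap. Of 18 genes of collagen and matrix 0 passed by limma (1 lower at an unadjusted p under 0.05), with a median of -0.11.

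The other genes with large differences have varied or little-known roles. Rsph3b, of the radial spoke of cilia, rose from 9.11, 14.9 and 11.3 to 24.2, 17.1 and 18.6 (log2 difference 0.73 ± 0.14 (SE, n = 3 in each group), limma adjusted p = 0.0348), with HFD replicate 2 close to the lowest HFD+AOS library, and it has a near-identical copy that can share its reads. R3hdml was near the lower limit of the table in HFD, at 0.290, 0.600 and 0.140, and at 1.46, 1.49 and 1.08 in HFD+AOS (log2 difference 0.81 ± 0.16 (SE, n = 3 in each group), limma adjusted p = 0.0338). Cnot9, of the complex that shortens the tails of messenger RNA, rose by 0.40, from 10.3, 11.03 and 10.1 to 13.7, 14.7 and 14.1, with one of the smallest adjusted p of the comparison (0.00751 by limma).

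Among the genes that fell, Ypel2 had the third largest difference, at 3.91, 2.76 and 3.40 against 9.47, 8.37 and 8.87 (log2 difference -1.19 ± 0.22 (SE, n = 3 in each group), limma adjusted p = 0.0247). Leo1, of a complex that travels with RNA polymerase, was at 4.92, 4.70 and 5.39 against 8.92, 8.59 and 8.95 (log2 difference -0.71 ± 0.15 (SE, n = 3 in each group), limma adjusted p = 0.0402), and Stx18, a membrane fusion protein of the ER, at 14.7, 13.5 and 14.5 against 23.5, 20.6 and 24.1 (log2 difference -0.63 ± 0.13 (SE, n = 3 in each group), limma adjusted p = 0.0359). Groups were apart in each. Bcl2l15 and Ppp1ccb were low throughout, at 1.79, 1.40 and 1.84 against 3.02, 4.25 and 4.79 and at 1.77, 1.87 and 1.84 against 3.82, 3.43 and 4.75, and passed with log2 differences of -0.89 and -0.81. Ppp1ccb is a near copy of another phosphatase gene, and its reads are uncertain for that reason.

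Lists of injury, inflammation and immune cells gave no call by limma. Of 11 tubule injury genes, 10 inflammatory genes, 16 interferon-stimulated genes, 13 immediate early genes, 14 macrophage and complement genes and 10 genes of T cells, B cells and antigen presentation, 0 passed in each (1, 0, 0, 0, 0 and 2 higher and none lower at an unadjusted p under 0.05), and their medians were 0.0901, 0.11, 0.24, 0.0845, -0.11 and 0.10. Tnf and Il6 were too low to test. The interferon genes were variable: Irf7, a regulator of the interferon response, was at 19.9, 8.34 and 21.9 against 3.55, 9.29 and 10.3, with overlap. Cdkn1a, an inhibitor of cell division named here after its values had been seen, was at 2.88, 2.24 and 2.76 against 9.97, 7.37 and 8.62, lower without overlap and not past the threshold (adjusted p = 0.245), and passed without control replicate 3 (adjusted p = 0.00705).

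The remaining metabolic and growth lists also gave no call by limma. Of 18 genes of oxidative phosphorylation, 16 of fatty acid synthesis and desaturation, 9 of the renin-angiotensin system, 12 androgen-responsive kidney genes and 10 of the cell cycle, 0 passed, with medians of -0.0735, -0.0831, 0.12, -0.11 and -0.13. At an unadjusted p under 0.05 there were 4 higher genes of fatty acid synthesis, 1 of the renin-angiotensin system, and 1, 1 and 2 lower genes of oxidative phosphorylation, fatty acid synthesis and the cell cycle. Kap, the most abundant transcript of all, was at 113327, 144936 and 146338 against 143440.0, 150864 and 159142, with overlap, and Gapdh, of glycolysis and the most abundant gene of its list, at 3338, 3529 and 3434 against 3387, 3693 and 3511, also with overlap.

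Markers of cell types were compared as summed levels, because a changed make-up of the sample could move with any of these results. Podocyte markers summed to 60.4 to 71.2 in HFD+AOS and 39.8 to 58.8 in HFD, intercalated cell markers to 355 to 406 and 312 to 324, and endothelium and mural cell markers to 141.02 to 179 and 185 to 202. The first 2 were higher and the last lower in HFD+AOS, without overlap, and 0 of the 10, 9 and 14 tested genes passed by limma (2 and 2 higher and 2 lower at an unadjusted p under 0.05). Car2 made up most of the intercalated sum, at 273, 238 and 251 against 207, 200 and 205. Of the 9 intercalated genes, 3 had a gap on the higher side and 0 on the lower, against 16.2% and 12% of all genes. Others overlapped, such as Rhcg, at 26.9, 25.5 and 28.6 against 26.4, 27.7 and 26.6. Nphs1, nephrin of the filtration slit, was at 2.94, 2.39 and 2.87 against 1.05, 1.33 and 1.86, and Tagln, of smooth muscle, at 8.60, 8.07 and 8.21 against 16.6, 13.5 and 19.6.

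Sums for the distal tubule with the loop of Henle, the collecting duct, macrophages, T and B cells, fat, urothelium and skeletal muscle overlapped between the groups. The fat sum, 1284 to 1506 against 1117 to 1906, had as its largest part Pck1, which the kidney itself expresses, at 979.5, 885 and 874 against 556, 685 and 865. Of the 13 tested fat markers 12 were lower and 1, Pck1, higher, with a median of -0.92, and 0 passed by limma (1 lower at an unadjusted p under 0.05). Adipoq, a hormone of fat cells, was at 5.36, 5.62 and 11.8 against 18.6, 9.52 and 34.9, and Cfd, an adipocyte protease, at 15.03, 15.8 and 39.5 against 71.1, 32.5 and 123, both with overlap. Markers of liver, germ cells, adrenal gland and skeletal muscle had low sums. Liver markers summed to 12.8 to 17.1 against 19.4 to 32.1, and germ cell markers to 19.99 to 24.9 against 28.3 to 68.4, both lower in HFD+AOS. The largest part of the liver sum was Trf, at 8.53, 7.08 and 7.69 against 14.4, 6.53 and 19.5, with overlap. Of the 6 tested liver markers 2 had a gap on the lower side, against 12% of all genes. Most of the germ cell sum in HFD+AOS and in HFD replicate 3 came from Smcp and Odf2. Smcp was at 11.68, 16.26 and 15.45 against 30.54, 32.8 and 22.14, and Odf2 at 7.28, 7.05 and 6.46 against 7.16, 7.16 and 5.46. Adrenal markers summed to 3.33 to 4.38 against 1.57 to 2.96, higher. Of these, Cyp11b2 and Th were listed at 0 in all 6 libraries, and the others were above 0 in at least 1. Akr1b7 was at 1.99, 1.59 and 1.89 against 0.43, 0.75 and 1.32. Proximal tubule markers, which define the labelled tissue, were high in each library. Skeletal muscle markers summed to 1.02 to 2.59 and 0.890 to 1.72, with Myh4 listed at 0. The part of cell make-up in the gene differences was not tested.

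**Figure D4:**
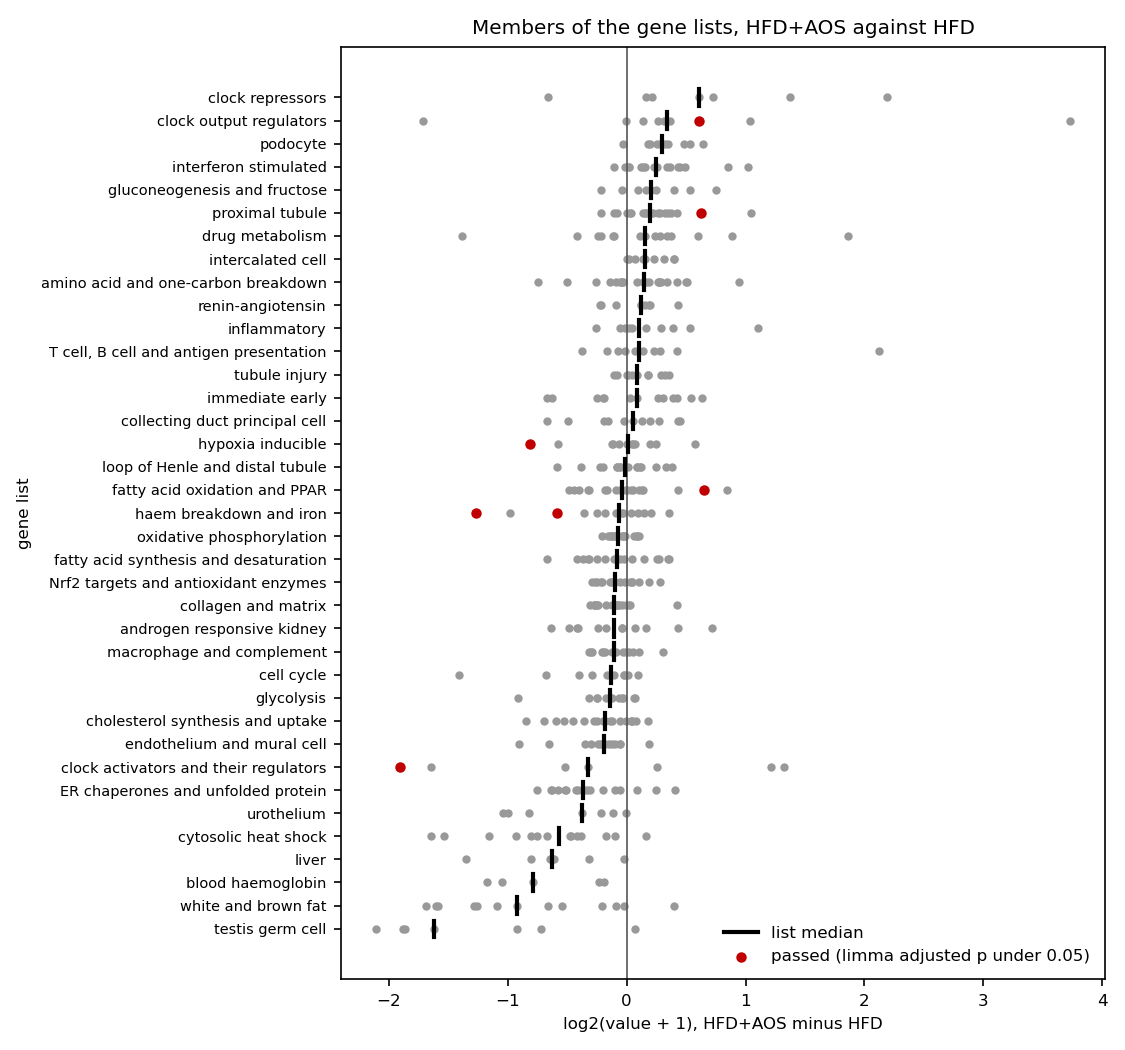
Log2 difference, HFD+AOS minus HFD, of each tested member of the gene lists with 5 or more tested members. Points are genes, black bars are list medians and red points are genes that passed. Heat shock, ER chaperone, haemoglobin, liver, fat and germ cell lists have medians below 0, clock repressors and output regulators have the highest medians, and 7 listed genes passed.

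AOS was also given without the high fat diet. In AOS against control libraries, which share no library with the comparison above, 4 genes passed (0.0332%), 1 higher and 3 lower, against 99 on the diet. With no filter on low values the order turned, with 149 genes without the diet and 45 on it. With one library of these groups left out the count was 0 by limma for each library but control replicate 2, without which it was 30. The fit without control replicate 3 had 1043 genes at an unadjusted p under 0.05. The difference between the 2 AOS effects passed for 0 genes (0%), with 1490 at an unadjusted p under 0.05 and a smallest adjusted p of 0.265 by limma, and for 1 gene without HFD replicate 1. In the fit of all libraries no gene was therefore shown to respond differently on the 2 diets.

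Of the 99 genes, 76 (76.8%) had the same sign in AOS minus control, against 50.1% of all genes, and these were 45 of the 56 higher and 31 of the 43 lower genes. Without control replicate 3, a fit added after the data had been seen, they were 89 of 99 (89.9%), against 58.5% of all genes. Both comparisons also differed in germ cell transcripts. The median of the tested germ cell markers was -1.62 on the diet and -2.47 in AOS minus control. The germ cell batch term marked every control library and no AOS library as holding these transcripts, so in AOS against control the 2 cannot be told apart. The part of this difference in the shared signs was not tested. Mov10, an RNA helicase, was the 1 gene that passed on both diets, at 10.9 ± 0.391 in HFD+AOS and 7.75 ± 0.320 in HFD (SD, n = 3), and at 10.6 ± 0.682 in AOS and 6.76 ± 0.244 in control. Its adjusted p in AOS against control was 0.0617 by limma without control replicate 3, no longer past the threshold. Dnajc12 and Tmem174 were also on the higher side, with log2 differences of 0.50 and 0.36 in AOS minus control. Hlf was close to 0 there, at 0.0433, and Hmox1 was at -0.28 against -1.26 on the diet. The value of Arntl there, -0.16, depended on control replicate 3. Arntl was at 6.75, 4.59 and 8.24 in AOS and 12.54, 10.05 and 2.71 in control. Every AOS value was thus above control replicate 3 and below the other control libraries.

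**Figure D5:**
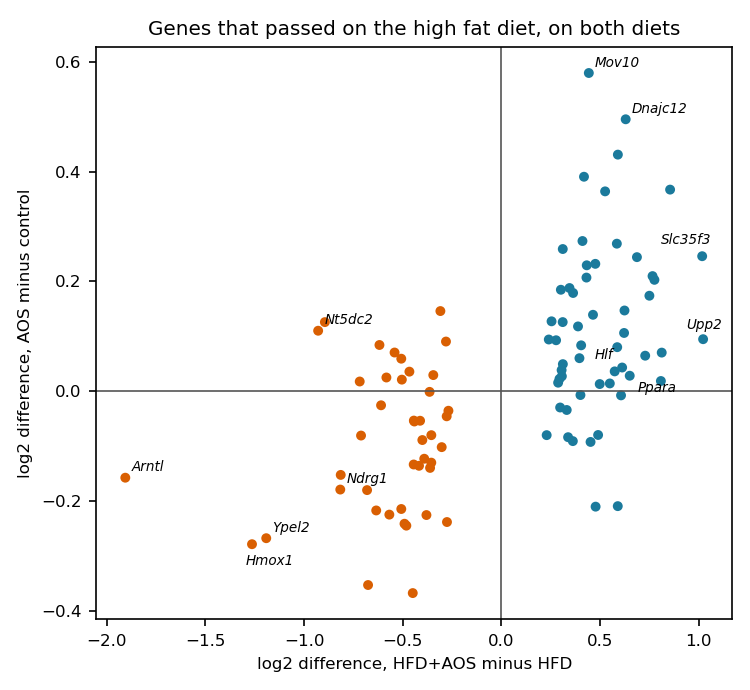
Log2 difference on the high fat diet (HFD+AOS minus HFD, horizontal) and without it (AOS minus control, vertical) for the 99 genes that passed on the diet. Blue points are higher and orange points lower on the diet, and 76 of 99 have the same sign on both axes.

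Levels in all 6 groups place the main genes, given as mean ± SD with n = 3 in each group. Arntl was at 8.43 ± 5.11 in control, 6.53 ± 1.84 in AOS, 9.85 ± 1.14 in HFD, 1.91 ± 0.469 in HFD+AOS, 1.71 ± 0.356 in HFD+AOS-FMT and 6.77 ± 2.93 in HFD+control-FMT. The HFD+AOS and HFD+AOS-FMT groups were the 2 lowest and lay within their SDs of each other. Hmox1 was at 37.2 ± 3.05, 30.6 ± 2.99, 50.4 ± 5.40, 20.3 ± 1.02, 27.6 ± 1.38 and 36.8 ± 7.87 in the same order, lowest in HFD+AOS and highest in HFD. Upp2 was at 9.63 ± 1.29, 10.3 ± 0.592, 5.47 ± 1.05, 12.2 ± 2.87, 11.7 ± 1.20 and 7.70 ± 1.02, lowest in HFD, with control and AOS between HFD and HFD+AOS.

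Ppara followed another order, at 10.7 ± 1.64, 10.8 ± 0.554, 10.97 ± 0.694, 17.9 ± 3.06, 17.1 ± 0.870 and 14.3 ± 1.05, with control, AOS and HFD within 1 unit of each other and the 3 treated groups on the diet above them. Ftl1 was at 4272 ± 78.9, 4351 ± 210.0, 5441 ± 373, 3633 ± 275, 3811 ± 511 and 4317 ± 490.2, highest in HFD and lowest in HFD+AOS, with SDs that overlap among the transplant groups. Over the genes that passed, HFD+control-FMT, whose label names no AOS, lay on the same side of HFD as HFD+AOS for 54 of 56 higher and 39 of 43 lower genes. HFD+AOS-FMT did so for 56 and 41, and control for 38 and 32. These groups share the HFD libraries as a reference, so the levels and these counts are a description.

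The genes that rose and fell also differed in length. The median of the longest annotated transcript was 3677 nucleotides for the higher and 2220 for the lower genes, against 3281.5 over all genes with a length (11924), and the median GC content was 48.8%, 52.0% and 49.8%. Over all genes the log2 difference and transcript length had a Spearman correlation of 0.19, and with genes split by length into 5 equal parts the medians ran from -0.061 in the shortest to 0.050 in the longest. Both are descriptions across genes within the same 6 libraries, and the part of RNA quality or library preparation in them was not tested.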

How the data were processed

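RNA of 18 mouse kidney libraries (6 groups of 3) was sequenced. The aligner was Bowtie 0.12.2 and the genome build mm10, per the submitters' processing notes. How reads were counted and scaled is not given in the sources used here. One table was deposited with a normalized signal for each gene symbol in each library, its unit is not stated, and depth is unknown. Of 19545 entries, 26 symbols turned into dates and 1 repeated symbol (Plin2, the entry with higher values kept) were left out. The 12031 genes that reached a value of 1 in at least 3 libraries were fitted as log2(value + 1) in 1 model of 6 groups (12 residual degrees of freedom) with limma 3.58.1 (R 4.3.3), trend and robust spread, two-sided, Benjamini-Hochberg over all genes at 0.05. The fit was tested on simulated data.

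The named genes are the 15 largest increases and 15 largest decreases among genes that passed without overlap and with a mean of at least 1, up to 4 passing members of each of 39 lists with its most abundant member, and all clock activators and repressors. Some genes that the rule names are not reported here. Other genes named were chosen after their values were seen. The members and lists were chosen with earlier results of these data known. Coordinates are from GENCODE M21 on GRCm38 (mm10). Alternatives changed the pseudocount, filter, scaling, weights, block and libraries.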

Additional observations from a re-analysis of the deposited data

How the results depend on the processing

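Depth is unknown, so what low values can show is not known. Of 99 genes, 98 passed again with a pseudocount of 0.1 and 98 with 0.5. For HFD+AOS against HFD the genes past the threshold, then higher and lower, were 45, 23 and 22 with no filter on low values, 941, 556 and 385 with array weights, 808, 510 and 298 without control replicate 3, 7, 6 and 1 with germ cell transcripts as a batch term, and 314, 185 and 129 with the groups of the contrast only. Without trend and robust estimation 67 passed, 36 of them higher. Leaving out one library of the comparison gave 10 to 40 genes, 6 to 24 higher and 3 to 16 lower. Each such fit has fewer samples, with 2 libraries left in the group. The cause of the other changes was not tested. In AOS against control, 149 genes passed with no filter, 1 with a value of at least 5 in 3 libraries, 1 after quantile normalization, 1 with array weights, 0 without control replicate 3, 0 with the germ cell term, and 0 to 30 with one library left out. The difference between the diets passed for 4 genes with no filter and for 0 to 1 with one library left out.

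The replicate numbers shared by the groups were checked as pairs: the deviations of same-numbered libraries correlated at 0.0066, 0.17 and 0.16, so the numbers were not taken as pairs. With a replicate block, 45 genes passed (22 higher and 23 lower, 43 of them among the 99), and 1 in AOS against control.

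None of the genes that passed changed sign in any fit that tested it. Other named genes did. By quantile normalization Me1 was 0.0260 and Timp3 0.0484. With array weights Timp3 was 0.00805 and Pcna -0.00773. With the germ cell term Per1 was -0.36, Gpx3 -0.13, Spp1 -0.0177, Hsd11b2 0.0465 and Me1 0.0881. With one library left out the ranges were -0.00749 to 0.42 for Per1, -0.0255 to 0.13 for Gpx3, -0.0988 to 0.0398 for Hsd11b2, -0.0786 to 0.0188 for Me1, -0.11 to 0.0382 for Nfkbia, -0.0294 to 0.0797 for Pcna, -0.00937 to 0.21 for Mylpf, -0.00298 to 0.54 for Spp1, -0.0510 to 0.0987 for Jund, -0.19 to 0.12 for Cd74 and -0.0611 to 0.0817 for Timp3.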
